A study of Arabidopsis thaliana with 23 samples.

Results

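The mitochondrially encoded genes of Arabidopsis are described here in seedlings of the sos2-2 mutant and of the wild type, with and without salt. They were taken as every gene of the mRNA table whose identifier starts with ATMG, the prefix of loci of the mitochondrial genome, with transcript values summed to genes. This gave 122 of 27655 genes. The rule used no measured value. Of the 122, 11 were listed at 0 in every library, 4 averaged under 1 TPM (a transcript abundance scaled for length and library size), and 107 averaged at least 1 TPM and were tested. The mRNA part of the study held 11 libraries of whole seedlings in 4 groups: sos2-2 in NaCl (3 libraries), sos2-2 on MS medium (2), wild type in NaCl (3) and wild type on MS medium (3). sos2-2 is a mutant of SOS2, a protein kinase of the salt overly sensitive pathway, and the wild type is named gl1 in the design text. All seedlings were 10 days old and grew in constant light on MS medium with sucrose. For the NaCl groups, 12 hours in liquid MS containing 100 mM NaCl followed. Whether the MS groups were also moved to liquid is not given in the labels, so NaCl and the move to liquid cannot be told apart. Whether replicates came from separate cultures is not given in the labels. The p-values thus rest on the spread between libraries, some or all of which may be technical.

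Plant mitochondria keep a small genome of their own that codes for core subunits of the respiratory chain and of ATP synthase, for proteins that attach heme to c-type cytochromes, and for some ribosomal proteins. Most other mitochondrial proteins are encoded in the nucleus, including the RNA polymerases that transcribe the mitochondrial genome and most of the proteins that splice, edit and trim its transcripts. In Arabidopsis a long stretch of mitochondrial DNA was also copied into nuclear chromosome 2, so that many mitochondrial genes have a near-identical nuclear locus that a read from the mitochondrion can match equally well.

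This copy sets how a single mitochondrial value can be read. The genomic spans of nuclear genes, introns included, were matched to the mitochondrial genome of the TAIR10.1 assembly. For 96 nuclear rows, matches of at least 95% identity covered at least 80% of the span. Of these 96, 94 lay on chromosome 2 between 3239693 and 3503476. In the longest match of each span, 54 were identical to the mitochondrial sequence, and the lowest identity was 99.72%. The notes of the reference annotation tie 45 mitochondrial genes to such a row. In the deposited estimates the reads of a pair were divided between its rows. The mitochondrial row held under 50% of the sum of the pair in 27 of the 45 pairs and under 10% in 12. Sums of a pair are therefore given below for the rows with a tied copy that the results turn on.

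The stretches shown here are the nuclear rows that the results turn on, read from RefSeq's TAIR10.1 assembly, 5′ to 3′ on the coding strand. AT2G07725 is the copy of ATMG00210, the gene of ribosomal protein L5. AT2G07676 is the copy of ATMG00970, an open reading frame of unknown product. AT2G07671 is the copy of ATMG01080, the gene of ATP synthase subunit 9. The first 120 coding bases of AT2G07725 and of AT2G07676 each occur unchanged at 1 place in the mitochondrial genome of that assembly, and those of AT2G07671 at 2 places.
AT2G07725, chr2:3448402-3448521, plus strand: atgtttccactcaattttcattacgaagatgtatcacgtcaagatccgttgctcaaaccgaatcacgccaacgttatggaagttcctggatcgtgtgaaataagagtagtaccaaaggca
AT2G07676, chr2:3272619-3272738, plus strand: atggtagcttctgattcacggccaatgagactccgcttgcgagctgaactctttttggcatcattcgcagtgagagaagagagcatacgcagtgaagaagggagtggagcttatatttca
AT2G07671, chr2:3251994-3252113, minus strand: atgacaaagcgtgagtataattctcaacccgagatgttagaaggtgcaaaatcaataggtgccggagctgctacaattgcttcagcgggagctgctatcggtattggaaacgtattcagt

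AT2G07695, the copy of ATMG01280 (a protein with the transmembrane domain of cytochrome c oxidase subunit II), shows how little can set a pair apart. It differed from the mitochondrial sequence at 2 of 1898 aligned bases. The capital letter marks the first of them.
AT2G07695, chr2:3347064-3347124, plus strand: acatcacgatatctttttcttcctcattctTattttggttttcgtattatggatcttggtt
Mitochondrial counterpart, positions 84221 to 84281, minus strand: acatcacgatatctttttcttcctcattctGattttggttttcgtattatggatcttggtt
The mitochondrial sequence from which the deposited ATMG rows were built need not be the one of this assembly.

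Mitochondrial transcripts were a small and uneven part of the libraries. The 10 highest ATMG genes held 49.9% of the mitochondrial TPM and the 20 highest held 71.8%, by the mean over all libraries. Averages were above 100 TPM for 28 genes, from 10 to 100 TPM for 62 and from 1 to 10 TPM for 17. Plastid genes held 65.4% to 79.3% of all TPM, so that a change in the plastid share moves every other value. The depth of the libraries is unknown, since TPM keeps no count. Shoot markers summed to 6310 to 9138 TPM in sos2-2 in NaCl, 6498 to 6555 in sos2-2 on MS, 3957 to 8172 in wild type in NaCl and 11077 to 12676 in wild type on MS. Root markers summed to 8.35 to 8.58 TPM in sos2-2 in NaCl, 8.08 to 14.0 in sos2-2 on MS, 6.67 to 9.08 in wild type in NaCl and 13.1 to 13.9 in wild type on MS. All 3 markers of each organ were tested, and both organs were thus present, but the summed shoot markers were higher in every wild-type library on MS than in every other library. The markers did not all follow this sum, to which RBCS1A, of the small subunit of Rubisco, and CAB1, a light-harvesting protein, contribute most. CAB1 had 4214 TPM in replicate 2 of sos2-2 in NaCl against 3932, 3706 and 3103 TPM in wild type on MS. It fell with salt in wild type (limma adjusted p = 0.04998). RBCS1A fell with salt in wild type (limma adjusted p = 0.0144) and in sos2-2 against wild type on MS (0.0449). LHCB2.1, another light-harvesting protein, had 416, 596 and 341 TPM in sos2-2 in NaCl against 227, 202 and 136 TPM in wild type in NaCl, where it rose (limma adjusted p = 0.00466), and 358 and 509 TPM in sos2-2 on MS against 306, 424 and 257 TPM in wild type on MS. The root markers did not move together either. EXPA7 had 1.34 to 2.38 TPM in sos2-2 and 0.771 to 1.26 TPM in wild type. It rose in sos2-2 against wild type in NaCl (limma adjusted p = 0.0131). PRP3 and SHV2 fell with salt in wild type (limma adjusted p = 0.0305 and 0.0493). The part of the markers in the results was not tested.

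Libraries did not all lie nearest to their own group. Replicate 1 of wild type in NaCl differed from the libraries of wild type on MS by a root mean square of 0.522 on the log2 scale over the tested mitochondrial genes, after each library was centred on its mean log2 value over these genes, and from the other wild-type libraries in NaCl by 0.744. Replicates 2 and 3 of wild type in NaCl averaged 0.752 and 0.714 to wild type on MS, and 0.610 and 0.616 to the rest of their own group. This was not particular to that library. Replicate 1 of sos2-2 in NaCl averaged 0.458 to sos2-2 on MS and 0.753 to the rest of its own group. For replicate 2 of that group the values were 0.609 and 0.689. The counts of called genes that replicate 1 of wild type in NaCl moves most are also given without it.

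Mitochondrial RNA made up a larger part of every sos2-2 library than of any wild-type library in the same medium. The ATMG genes held 1.50%, 1.34% and 1.41% of all TPM in sos2-2 in NaCl, against 1.16%, 1.06% and 0.866% in wild type in NaCl. On MS they held 1.66% and 1.42% in sos2-2, against 1.33%, 1.07% and 1.13% in wild type. The libraries of the 2 genotypes did not overlap in either medium. The mean share was 1.42% ± 0.0843 (SD, n = 3) in sos2-2 and 1.03% ± 0.152 (n = 3) in wild type in NaCl, a ratio of 1.37. On MS it was 1.54% ± 0.173 (n = 2) in sos2-2 and 1.18% ± 0.137 (n = 3) in wild type, a ratio of 1.31. The exact two-sided permutation p was 0.1 in NaCl and 0.2 on MS, 0.4 after adjustment over 4 comparisons, and 0.1 is the smallest p these group sizes allow. Salt against MS gave ratios of 0.918 in sos2-2 and 0.876 in wild type, with overlapping groups and an exact permutation p of 0.4 in each. With the nuclear copies added to the share, the ratio of sos2-2 to wild type was 1.30 in NaCl and 1.25 on MS. The genotypes were apart in both media on that share too (exact permutation p = 0.1 and 0.2). In RNA of whole seedlings, more mitochondria or mitochondrial genomes per cell and more RNA per genome cannot be told apart.

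The plastid share was 68.0%, 69.8% and 65.9% in sos2-2 in NaCl against 71.5%, 74.2% and 79.3% in wild type in NaCl, without overlap (exact permutation p = 0.1). On MS it was 68.6% and 72.9% in sos2-2 against 65.4%, 71.5% and 67.9% in wild type, where the groups overlapped (exact permutation p = 0.4) and the mean lay higher in sos2-2. Taken outside the plastid, the mitochondrial share was 5.30% and 5.25% in sos2-2 on MS, against 3.84%, 3.75% and 3.54% in wild type on MS, a ratio of 1.42 (exact permutation p = 0.1, adjusted 0.133). In NaCl it was 4.70%, 4.42% and 4.13% in sos2-2 and 4.08%, 4.11% and 4.18% in wild type. The NaCl groups overlapped, with a ratio of 1.07 (exact permutation p = 0.2). With the nuclear copies added, the ratio outside the plastid was 1.01 in NaCl (exact permutation p = 0.9) and 1.36 on MS (0.1). For the share outside the plastid without the copies, the salt difference ran in opposite directions in the 2 genotypes. It was -0.858 percentage points in sos2-2 and 0.414 in wild type, and no NaCl library overlapped the MS libraries of its genotype. The difference between these salt differences was -1.27 points, with an exact permutation p of 0.005 over 200 arrangements of the media within genotypes, which is the smallest p they can give (0.0125 adjusted over 5 measures). Such arrangements assume no salt difference in either genotype, rather than an equal salt difference in both. Leaving out 1 library at a time gave -1.13 to -1.42 points. On the share of all TPM the same difference was 0.0192 points (exact permutation p = 0.915), and the NaCl and MS groups overlapped in both genotypes.

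**Figure D1:**
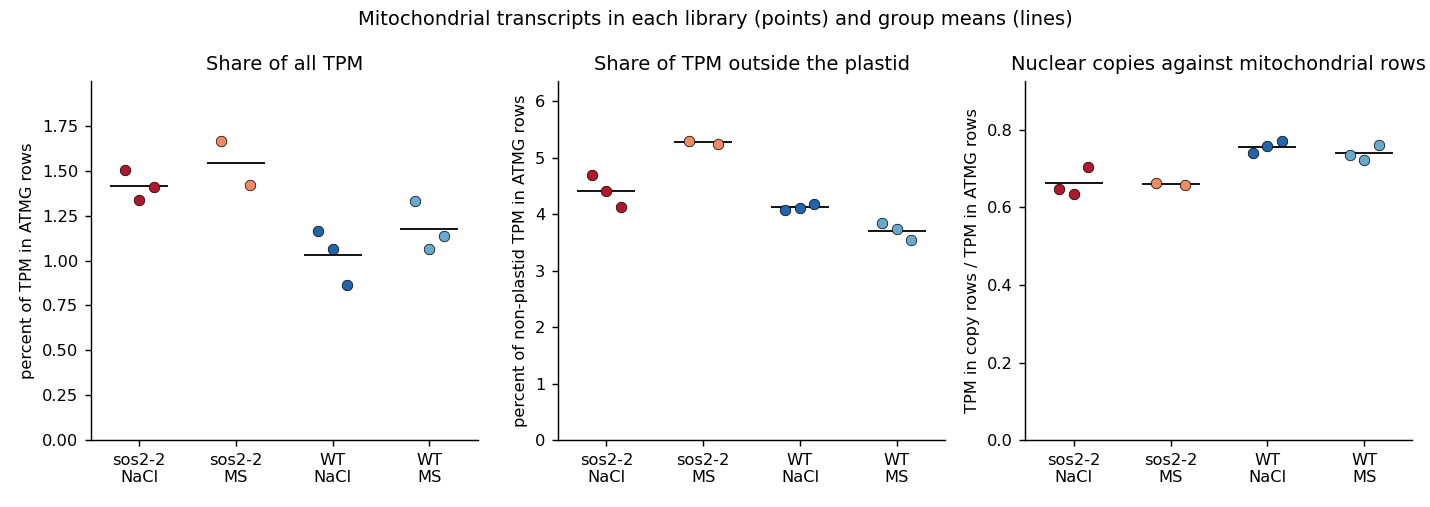
Share of TPM from mitochondrial genes (percent of all TPM, left, and percent of TPM outside plastid genes, middle) and TPM of nuclear copies per mitochondrial TPM (right), by library. Points are libraries and lines are group means: the sos2-2 shares of 1.34% to 1.66% of all TPM lie above the wild-type shares in the same medium, and outside the plastid the 2 sos2-2 libraries on MS are highest.

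The makeup of the mitochondrial rows also separated the genotypes. In a principal component analysis of the 107 tested genes, with libraries centred in the same way, the first component held 44.3% of the variance and the second 23.6%. On the first component the 5 sos2-2 libraries lay between -5.13 and -0.891 and the 6 wild-type libraries between 1.72 and 4.82. The media overlapped on this component within each genotype. Nuclear copy rows did not enter. The part that the division of reads between a row and its copy had in this separation was not tested. A library property moved with part of this pattern. Across 16281 nuclear genes, the rank correlation of a gene's deviation in a library with its purine content was 0.254, -0.181 and 0.0387 in sos2-2 in NaCl, 0.198 and 0.240 in sos2-2 on MS, -0.317, 0.194 and 0.329 in wild type in NaCl, and -0.248, -0.392 and -0.0874 in wild type on MS. On MS the genotypes had opposite signs, and its part in the results was not tested beyond the fit with this trend as a covariate.

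**Figure D2:**
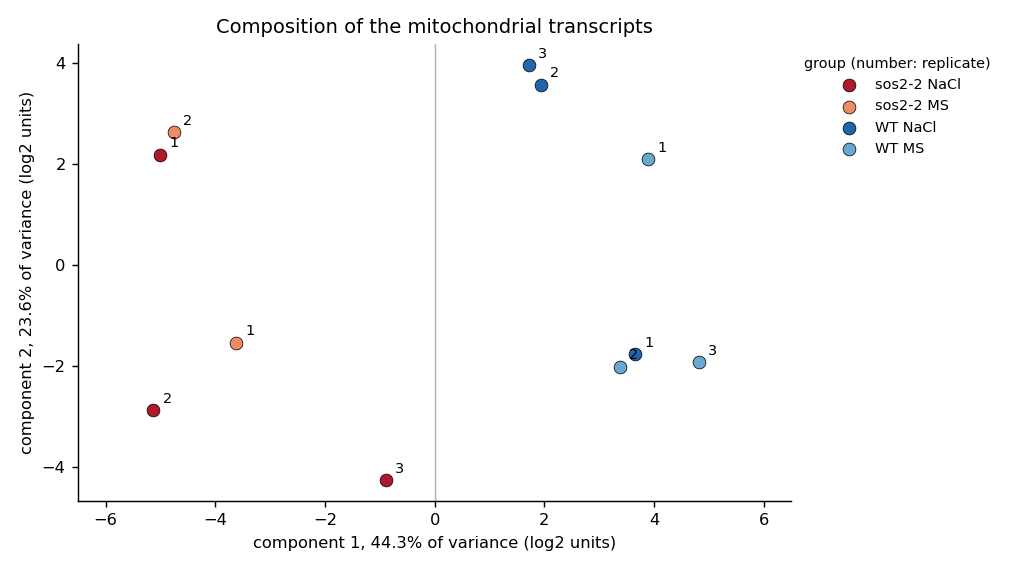
First and second principal component of the 107 tested mitochondrial genes, without nuclear copy rows, on log2(TPM + 1), after each library was centred on its mean over these genes. Each point is a library and its number is the replicate; sos2-2 libraries lie below 0 on the first component and wild-type libraries at 1.72 or above, and replicate 1 of wild type in NaCl lies among the wild-type libraries on MS.

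Single genes were compared on log2(TPM + 1) in 1 limma fit over all 4 groups and 16564 genes, with p-values adjusted by Benjamini-Hochberg over all genes. Genes under 0.05 were called, and only these are said to have risen or fallen. The median gene moved by 0.32 in sos2-2 against wild type in NaCl, -0.05 in sos2-2 against wild type on MS, 0.16 with salt in sos2-2, -0.21 with salt in wild type, and 0.39 in the interaction, which is the change with salt in sos2-2 less the change with salt in wild type. A change relative to the median gene is the log2 change less that shift. Adjusted p-values refer to the deposited values without this shift.

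In sos2-2 against wild type on MS, 10 mitochondrial genes rose and 2 fell, the 2 with identical values in every library, where 1.56% of all 16564 genes rose and 1.23% fell. The median mitochondrial gene was 0.19 above the median gene, and 71 of 107 were above it. These calls depended on single libraries: 2 remained without either sos2-2 library on MS, 3 without replicate 3 of wild type on MS and 4 without replicate 2 of it, while without replicate 1 of wild type in NaCl, which enters through the shared spread, 18 were higher and 4 lower. That last fit called 679 of all genes higher and 753 lower. In NaCl, 18 rose and 1 fell in sos2-2 against wild type, where 18.9% of all genes rose and 0.404% fell, so the share of mitochondrial genes that rose was close to that of all genes. The median mitochondrial gene was 0.02 above the median gene there, and 54 of 107 were above it. Without replicate 1 of wild type in NaCl the counts were 37 and 1, where 5421 of all genes were higher and 149 lower. Without replicate 2 of that group they were 10 and 0 (1731 and 20 of all genes), and without replicate 3 of it 6 and 2 (1065 and 53). Leaving out the first sos2-2 replicate of the NaCl group gave 7 and 1 (1825 and 41). After median centring, 5 were higher and 6 lower (821 and 936). The count over all genes thus moved with that of the mitochondrial genes.

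Salt moved few mitochondrial genes in the limma fit. In sos2-2 no mitochondrial gene was called with salt against MS (10 at an unadjusted p under 0.05), where 5.66% of all genes rose and 0.936% fell. Their median lay 0.33 below the median gene and 13 of 107 were above it, and after median centring 9 were lower and 0 higher, where 697 of all genes were lower and 764 higher. Without replicate 1 of wild type in NaCl, 2 were lower and 0 higher (226 and 1230 of all genes). In wild type 1 rose and 1 fell, where 1.7% of all genes rose and 7.71% fell, and the median was 0.05 below the median gene. Without replicate 1 of wild type in NaCl, 2 were higher and 31 lower, where 656 of all genes were higher and 3628 lower. In the interaction 1 gene was lower and none higher, where 0.0724% of all genes were lower and 1.97% higher. Without that same library, 12 were higher and 2 lower, where 3208 of all genes were higher and 351 lower.

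**Figure D3:**
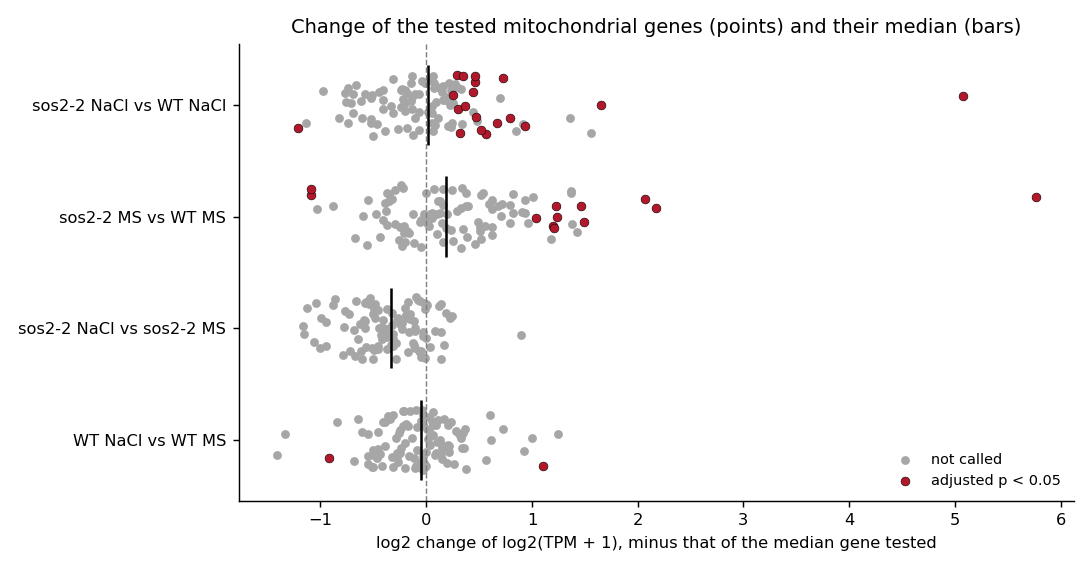
Log2 change relative to the median gene of the 107 tested mitochondrial genes in 4 comparisons. Points are genes, called ones in red, and bars mark the median, which lies at 0.02 for sos2-2 against wild type in NaCl, 0.19 on MS, -0.33 for salt in sos2-2 and -0.05 for salt in wild type. The rightmost point of the upper 2 comparisons is ATMG00210, whose fitted change against values of 0 depends on the pseudocount and is not a fold.

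Scaled to the mitochondrial total, which asks how genes moved relative to other mitochondrial RNA, 10 rose and 22 fell in sos2-2 against wild type on MS, where 1.2% of all genes rose and 35.9% fell on this scale. With the purine trend as a covariate 7 were higher and 8 lower, and 10 of the 32 remained called. The count over all genes is not given for that fit, so this cannot be read as a result about the mitochondrial genes alone. In NaCl 3 rose and 6 fell (3.98% and 4.41% of all genes). Salt called 2 lower and none higher in sos2-2 (1.03% of all genes lower and 14.5% higher) and 1 higher and 1 lower in wild type (3.17% and 6.21%), and the interaction called 1 lower and none higher (0.0302% and 3.28%). Taking both media together, 18 of the 107 were higher in every sos2-2 library than in every wild-type library on the TPM scale, where 5.87% of all genes were, and none was lower (0.29%). Relative to the mitochondrial total, 5 were higher in every sos2-2 library, where 0.61% of all genes were: ATMG00210, ATMG00285, ATMG00400, ATMG00480 and ATMG01280, listed here after their values were seen. Another 9 were lower in every sos2-2 library (8.0% of all genes). Without sos2-2 replicate 1 or 2 on MS, the MS counts on this scale were 4 higher and 14 lower, and 3 higher and 3 lower. The counts over all genes are not given for these fits, and the same limit holds. Without replicate 1 of wild type in NaCl, salt in wild type gave 7 higher and 14 lower, where 1501 of all genes were higher and 2038 lower. The interaction then gave 7 higher and 7 lower (2869 and 505 of all genes), and sos2-2 against wild type in NaCl 7 higher and 4 lower (940 and 1140). Of the 5 genes listed, ATMG00210 remained apart over both media in the TPM sum with the copy. ATMG00480 did too, but its values equal those of its copy in every library. Its sum thus repeats the row and is no further evidence. The sum of ATMG00400 overlapped, at 156 and 119 TPM in sos2-2 on MS against 131, 108 and 97.8 TPM in wild type on MS. That of ATMG01280 overlapped too, with 94.2 TPM in replicate 3 of sos2-2 in NaCl against 115 TPM in replicate 1 of wild type on MS. ATMG00285 had no tied copy.

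ATMG00970, named in the reference only as an unknown protein, was the single mitochondrial gene whose salt response differed between the genotypes on both scales. It had 57.0, 51.4 and 46.4 TPM in sos2-2 in NaCl, 93.6 and 75.6 TPM in sos2-2 on MS, 40.0, 38.7 and 35.9 TPM in wild type in NaCl, and 21.1, 19.7 and 19.5 TPM in wild type on MS. No group overlapped another. With salt it rose in wild type (log2 change 0.89 ± 0.19 SE, 1.10 relative to the median gene, limma adjusted p = 0.00753). In sos2-2 the change with salt was -0.70 ± 0.21 (limma adjusted p = 0.054). On MS it rose in sos2-2 against wild type by 2.01 ± 0.21 (2.07 relative, limma adjusted p = 0.000148), and in NaCl the difference was 0.42 (limma adjusted p = 0.113). The interaction was -1.59 ± 0.28 (-1.98 relative, limma adjusted p = 0.00391) and remained called in every alternative, including each fit without 1 library. Its row held 85.4% of the sum with AT2G07676, and the sum gave an interaction of -1.20 (limma adjusted p = 0.0285).

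**Figure D4:**
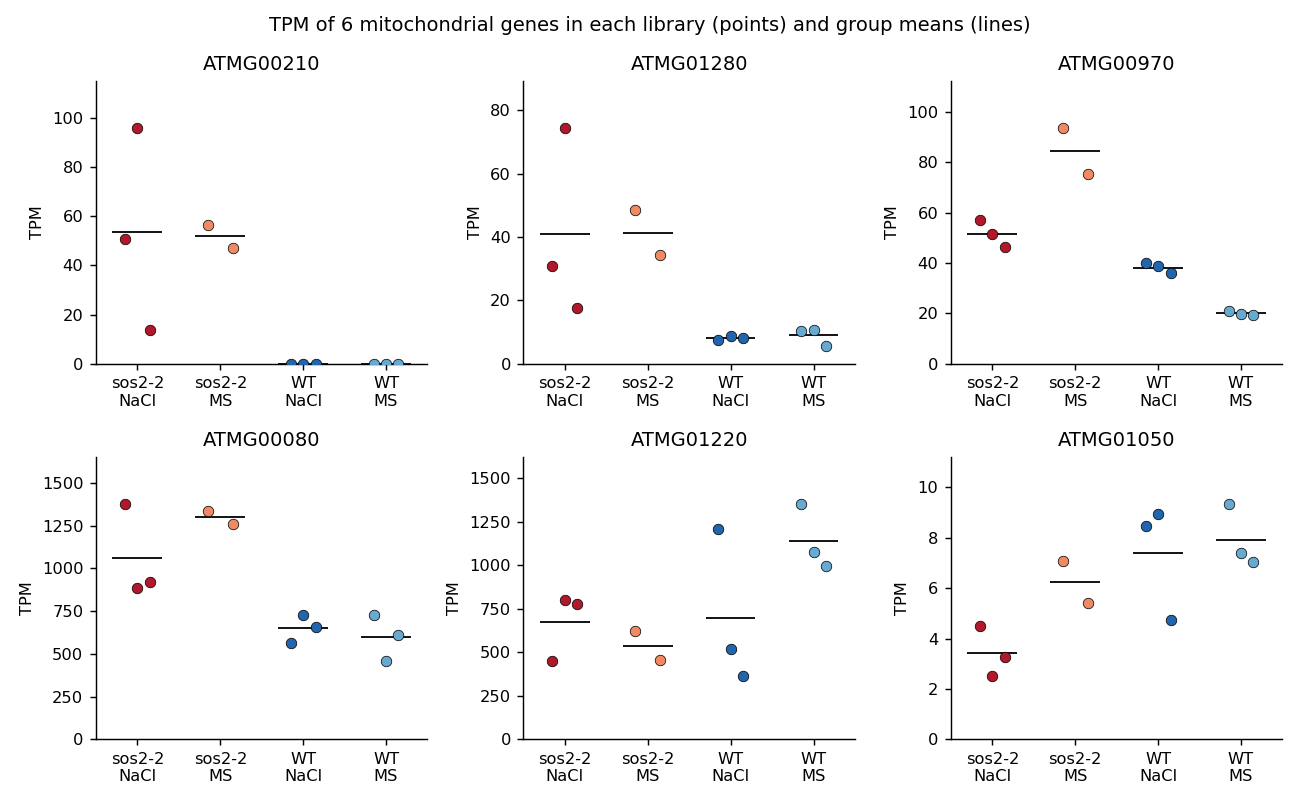
TPM by library of 6 mitochondrial genes (ATMG00210, ATMG01280, ATMG00970, ATMG00080, ATMG01220 and ATMG01050), on linear axes. Points are libraries and lines are group means: ATMG00210 is listed at 0 in all 6 wild-type libraries, and ATMG00970 runs opposite ways with salt in the 2 genotypes.

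The neighbours of this reading frame were examined after its values were seen, through the nuclear rows that match the mitochondrial genome next to it. AT2G07751 (nad3, a subunit of NADH dehydrogenase) matches positions 288044 to 288400 of the TAIR10.1 mitochondrial sequence, AT2G07675 (rps12, a ribosomal protein) 288446 to 288823, AT2G07676 (the copy of ATMG00970) 290655 to 291011, and AT2G07768 (ccmFN2, a protein of cytochrome c maturation) 291620 to 292191. nad3 and rps12 are known in plants to be transcribed together. The sum of ATMG00990 and AT2G07751, the nad3 pair, was 185, 134 and 168 TPM in sos2-2 in NaCl, 216 and 208 TPM in sos2-2 on MS, 92.5, 120 and 102 TPM in wild type in NaCl and 77.4, 84.0 and 76.9 TPM in wild type on MS. Every sos2-2 library was above every wild-type library. The sum rose by 1.41 ± 0.22 on MS (limma adjusted p = 0.00728) and by 0.62 ± 0.20 in NaCl (0.0375). For rps12 the sum with the copy differed by 0.65 on MS and 0.61 in NaCl (limma adjusted p = 0.159 and 0.067). On the other side of nad3, the pair sum of ATMG01010 differed by 1.30 on MS and that of ATMG01030 by -0.21 (limma adjusted p = 0.149 and 0.773).

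ATMG00960, the row of ccmFN2, had 93.6, 68.7 and 63.0 TPM in sos2-2 in NaCl against 34.1, 49.5 and 46.5 TPM in wild type in NaCl. On MS it had 99.3 and 83.0 TPM in sos2-2 against 47.0, 32.7 and 39.6 TPM in wild type. It was higher in all sos2-2 libraries, rose by 1.19 ± 0.25 on MS (limma adjusted p = 0.0235) and by 0.77 ± 0.22 in NaCl (0.0241), and its nuclear copy was listed at 0. The other 2 rows that the reference describes for cytochrome c maturation did not pass the test in any comparison on the TPM scale. ATMG00180 (cytochrome c biogenesis 452) had 105, 85.8 and 110 TPM in sos2-2 in NaCl, 112 and 100 TPM in sos2-2 on MS, 102, 94.7 and 70.4 TPM in wild type in NaCl and 106, 108 and 92.2 TPM in wild type on MS. In TPM the genotypes overlapped in both media. As a share of the mitochondrial total, ATMG00180 was lower in every sos2-2 library than in every wild-type library, as were 8.0% of all genes on that scale. The share was 0.642% to 0.782% in sos2-2 and 0.795% to 1.01% in wild type.

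ATMG00210, the row of ribosomal protein L5, had the most one-sided values. It was listed at 50.6, 95.9 and 13.8 TPM in sos2-2 in NaCl and 56.4 and 47.2 TPM in sos2-2 on MS, and at 0 in all 6 wild-type libraries, so no fold is given. It was called in both media (limma adjusted p = 2.93e-07 in NaCl and 5.13e-06 on MS). Its copy AT2G07725, whose coding start is printed above, was not at 0 in wild type: it had 324, 222 and 252 TPM in sos2-2 in NaCl, 348 and 279 TPM in sos2-2 on MS, 166, 194 and 160 TPM in wild type in NaCl and 171, 135 and 155 TPM in wild type on MS. The zeros are thus zeros of 1 row of a pair and not of the L5 sequence. The sum of the pair averaged 319 ± 54.3 TPM in sos2-2 and 173 ± 17.7 TPM in wild type in NaCl (SD, n = 3 each). On MS it averaged 365 ± 55.4 TPM in sos2-2 (n = 2) and 154 ± 17.9 TPM in wild type (n = 3). The sum rose by 0.87 ± 0.21 in NaCl (0.55 relative to the median gene, limma adjusted p = 0.009) and by 1.24 ± 0.23 on MS (1.30 relative, 0.0147). Relative to the mitochondrial total the sum was not called in NaCl (limma adjusted p = 0.109).

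ATMG01280 showed the same split of a pair. Its row had 30.8, 74.4 and 17.6 TPM in sos2-2 in NaCl and 48.6 and 34.2 TPM in sos2-2 on MS, against 7.36, 8.62 and 8.10 TPM in wild type in NaCl and 10.4, 10.8 and 5.69 TPM in wild type on MS. All sos2-2 libraries were above all wild-type libraries, and the row rose by 1.97 ± 0.36 in NaCl (limma adjusted p = 0.00138) and 2.12 ± 0.40 on MS (0.0155). With AT2G07695, the copy printed above, the sum differed by 0.68 in NaCl and 0.71 on MS and was not called (limma adjusted p = 0.0628 and 0.165). On MS the row lost its call without either sos2-2 library (0.115 and 0.121) or without replicate 3 of wild type (0.0555).

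**Figure D5:**
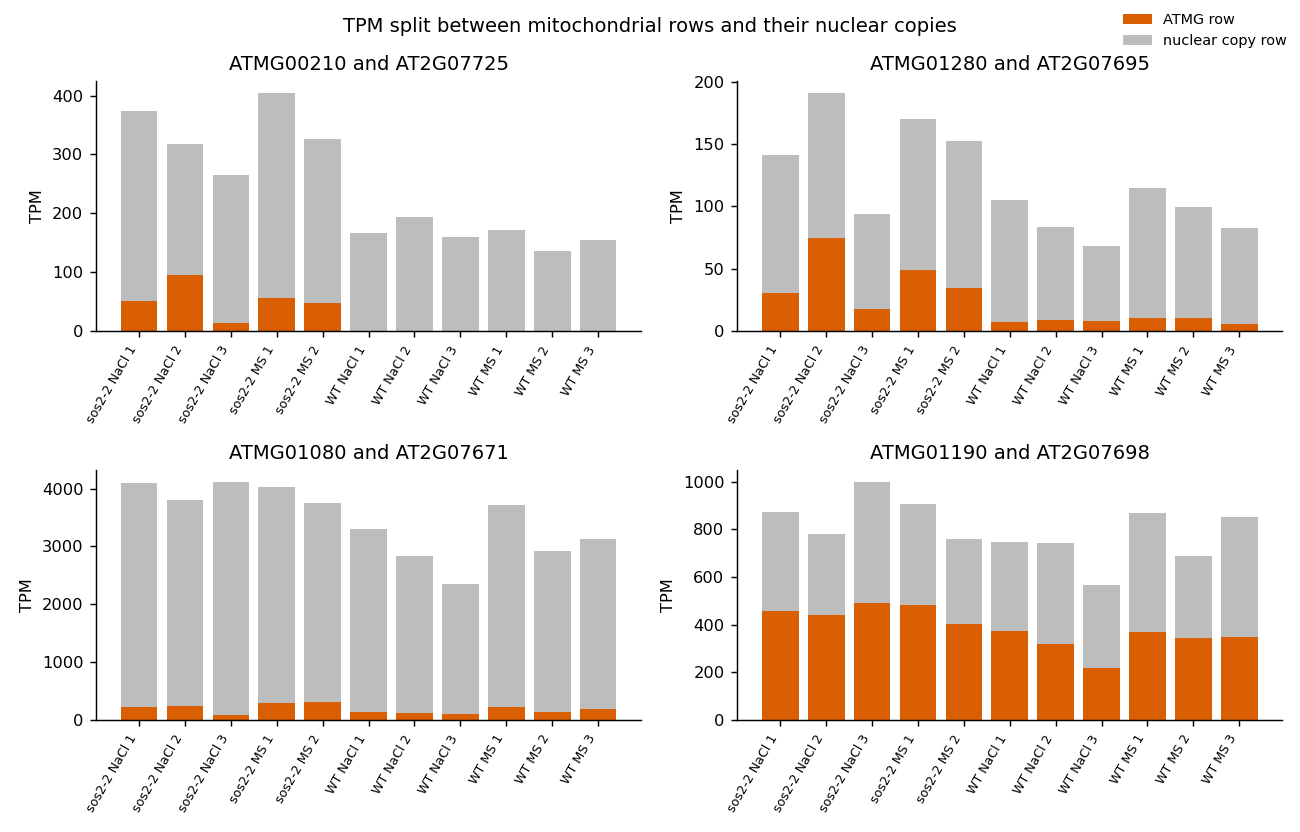
TPM of the mitochondrial row and of its nuclear copy row, stacked, in each library for 4 pairs: ATMG00210 and AT2G07725, ATMG01280 and AT2G07695, ATMG01080 and AT2G07671, and ATMG01190 and AT2G07698. Over all libraries the mitochondrial row holds 9.88%, 19.7% and 5.34% of the sum in the first 3 pairs and 48.3% in the fourth, and its part varies between libraries.

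The sums of 6 of 45 pairs rose and 1 fell in sos2-2 against wild type on MS, against 4 and 1 of the 34 single mitochondrial rows tested, where 1.56% of all genes rose and 1.23% fell. In NaCl 9 sums rose and none fell, against 9 and 1 of the single rows, where 18.9% of all genes rose and 0.404% fell. The TPM of the 96 nuclear rows per mitochondrial TPM was itself lower in sos2-2: it was 0.647, 0.635 and 0.703 in sos2-2 in NaCl against 0.739, 0.758 and 0.771 in wild type in NaCl, and 0.663 and 0.657 in sos2-2 on MS against 0.736, 0.723 and 0.761 in wild type on MS. The genotypes did not overlap in either medium (exact permutation p = 0.1 in each, adjusted 0.2).

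Among the mitochondrial rows grouped here by a role that the reference annotation names, 16 of 17 were tested, and those that were called all rose. In sos2-2 against wild type, 6 of 16 rose in NaCl and 2 of 16 on MS, and none fell in either, where 18.9% and 1.56% of all genes rose. None was called with salt or in the interaction. Their median was 0.30 above the median gene in NaCl and 0.61 on MS. Of the other 91 tested rows, 12 rose and 1 fell in NaCl and 8 rose and 2 fell on MS, with medians of -0.11 and 0.13. Reference names came only from notes that tie a row to a nuclear row, so all 17 had a tied copy. The other 91 included rows without a description, and described ones such as ATMG01280 and ATMG01090. The medians thus do not set genes with a role against genes without a role.

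For the electron transport chain, ATMG00730 (cytochrome c oxidase subunit 3) had 208, 218 and 226 TPM in sos2-2 in NaCl against 181, 122 and 90.9 TPM in wild type in NaCl. On MS it had 213 and 176 TPM in sos2-2 against 176, 176 and 143 TPM in wild type. The groups were apart in NaCl, where it rose by 0.78 ± 0.23 (0.46 relative, limma adjusted p = 0.0288), but the sum with its copy was not called (0.228). ATMG01275, of subunit 1 of NADH dehydrogenase (complex I), the proton-pumping entry complex of the chain, had 739, 540 and 842 TPM in sos2-2 in NaCl, 741 and 608 TPM in sos2-2 on MS, 359, 561 and 422 TPM in wild type in NaCl and 416, 314 and 466 TPM in wild type on MS. It missed the threshold in NaCl, where groups overlapped, and on MS, where they did not (limma adjusted p = 0.0573 and 0.111), and the sum with its copy missed it too (0.0628 and 0.125). ATMG01320, of subunit 2 of the same complex, stayed between 81.0 and 114 TPM in sos2-2 and between 58.8 and 103 TPM in wild type. ATMG00220 (apocytochrome b, of the cytochrome bc1 complex) was scattered, at 12.7 to 37.5 TPM in sos2-2 and 2.91 to 43.5 TPM in wild type, and held 20.2% of its pair, whose sum was 121 to 157 TPM in sos2-2 and 85.0 to 154 TPM in wild type. Neither row was called, and neither pair sum was called between the genotypes.

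For ATP synthase, 3 of the 4 rows grouped here by their reference description rose in sos2-2 against wild type in NaCl, where 18.9% of all genes rose. None of the 4 was called on MS, and rows without a description were not counted. ATMG01090, also described as ATP synthase subunit 9, was left out of the 4. It had 77.8, 57.2 and 39.1 TPM in sos2-2 in NaCl against 49.6, 38.6 and 47.2 TPM in wild type in NaCl, with overlap. On MS it had 88.6 and 82.5 TPM in sos2-2 against 59.1, 36.3 and 45.1 TPM in wild type, without overlap. ATMG00480 (subunit 8) had 67.9, 83.7 and 58.3 TPM in sos2-2 in NaCl and 68.6 and 70.6 TPM in sos2-2 on MS, against 41.8, 33.9 and 25.5 TPM in wild type in NaCl and 42.3, 38.5 and 30.1 TPM in wild type on MS. Its values equal those of its copy AT2G07707 in every library, and no sos2-2 library overlapped a wild-type one. It rose by 1.04 ± 0.22 in NaCl (0.73 relative, limma adjusted p = 0.00493) and missed the threshold on MS (0.0563). ATMG00410 (subunit 6) had 193, 225 and 185 TPM in sos2-2 in NaCl against 151, 120 and 90.0 TPM in wild type in NaCl, and rose there by 0.76 ± 0.22 (limma adjusted p = 0.0225). ATMG01190 (subunit 1) had 457, 442 and 493 TPM in sos2-2 in NaCl against 374, 318 and 220 TPM in wild type in NaCl, and rose by 0.64 ± 0.21 (limma adjusted p = 0.0439), while its pair sum was not called (0.186). ATMG01080 (subunit 9, the membrane ring) held 5.34% of its pair. Its row had 218, 236 and 90.3 TPM in sos2-2 in NaCl and 289 and 309 TPM in sos2-2 on MS, against 128, 111 and 104 TPM in wild type in NaCl and 215, 141 and 188 TPM in wild type on MS, and was not called. The sum with AT2G07671 was 4103, 3798 and 4120 TPM in sos2-2 in NaCl against 3309, 2826 and 2353 TPM in wild type in NaCl, and 4025 and 3744 TPM in sos2-2 on MS against 3722, 2919 and 3121 TPM in wild type on MS. The sums of the genotypes were apart in both media and not called (0.51 in NaCl and 0.26 on MS, limma adjusted p = 0.0596 and 0.516).

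For the mitochondrial ribosome, 4 rows with a reference description were tested, and the row of L5 described above was the only one of them called. Rows without a description were not counted. ATMG00980 (S12) had 119, 92.1 and 118 TPM in sos2-2 in NaCl and 135 and 125 TPM in sos2-2 on MS, against 71.1, 77.6 and 65.7 TPM in wild type in NaCl and 102, 57.7 and 95.6 TPM in wild type on MS. Within each medium sos2-2 was higher in every library, and no comparison was called. ATMG00290 (S4) ranged from 44.3 to 88.1 TPM in sos2-2 and from 34.6 to 65.7 TPM in wild type. Its pair sum was 252 and 233 TPM in sos2-2 on MS against 170, 138 and 162 TPM in wild type on MS, without overlap and not called (0.63, limma adjusted p = 0.119). ATMG00560, whose copy overlaps rpl2 of the large subunit, ranged from 85.7 to 106 TPM in sos2-2 and from 48.9 to 98.9 TPM in wild type. ATMG01270 (S7) was listed at 0 throughout, and its copy AT2G07696 was the row that carried values.

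The most abundant rows include several that the reference used here does not describe, and they are given by identifier. Their roles are not given here, so the counts above for the complexes and the ribosome leave them out. ATMG00080 had 1378, 887 and 923 TPM in sos2-2 in NaCl and 1337 and 1262 TPM in sos2-2 on MS, against 566, 729 and 658 TPM in wild type in NaCl and 727, 456 and 610 TPM in wild type on MS. All sos2-2 libraries were higher, and it rose by 1.14 ± 0.25 on MS (limma adjusted p = 0.0266) and 0.68 ± 0.23 in NaCl (0.043). The NaCl call was lost in 8 of 11 fits without 1 library (0.0558 to 0.191) and the MS call in 4 (0.0769 to 0.219). ATMG00640 had 646 and 772 TPM in sos2-2 on MS against 301, 223 and 260 TPM in wild type on MS, and rose by 1.44 there (limma adjusted p = 0.0338, lost without any 1 of the 5 MS libraries at 0.055 to 0.261). In NaCl it had 872, 402 and 465 TPM in sos2-2 against 276, 559 and 594 TPM in wild type, and the groups overlapped. In wild type in NaCl, replicate 1 was again the one near the MS libraries.

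ATMG01220, an unknown protein, took the largest share of mitochondrial TPM in wild type on MS among the genes named here, at 10.2%, 10.1% and 8.76%, against 3.73% and 3.20% in sos2-2 on MS. In NaCl its share was 3.00%, 5.99% and 5.52% in sos2-2 and 10.3%, 4.89% and 4.17% in wild type. The groups were apart on MS and overlapped in NaCl, where replicate 1 of wild type was again near its MS values. Relative to the mitochondrial total it fell by 1.48 in sos2-2 against wild type on MS (limma adjusted p = 0.00921, 0.0771 without replicate 2 of sos2-2). On the TPM scale it was not called there (0.115).

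A few rows fell. ATMG01050, an unknown protein, had 4.51, 2.52 and 3.27 TPM in sos2-2 in NaCl against 8.46, 8.94 and 4.73 TPM in wild type in NaCl, and 7.08 and 5.39 TPM in sos2-2 on MS against 9.34, 7.40 and 7.03 TPM in wild type on MS. The groups were apart in NaCl, where it fell by 0.90 on the log2 scale (SE 0.23, limma adjusted p = 0.0128). The call was lost without the second NaCl replicate of sos2-2 (0.0525) or of wild type (0.0637) and in the sum with its copy (0.298). Relative to the mitochondrial total the fall was -1.29 (limma adjusted p = 0.000704) and remained called in every fit without 1 library. ATMG00170 and ATMG00620, which hold the same values and count as 1 measurement, had 54.6 and 35.1 TPM in sos2-2 on MS against 88.1, 107 and 101 TPM in wild type on MS. They fell by 1.15 (limma adjusted p = 0.0448, lost in 6 of 11 fits without 1 library at 0.059 to 0.367), and relative to the mitochondrial total by 1.53 (0.00235, remaining in all 11).

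ATMG00870 and ATMG01260 fell in sos2-2 against wild type in NaCl on the scale of the mitochondrial total and were not called on the TPM scale (limma adjusted p = 0.0545 and 0.139). ATMG00870 had 1.18, 1.36 and 0.449 TPM in sos2-2 in NaCl against 3.15, 3.33 and 1.28 TPM in wild type in NaCl, with overlap, and fell relative to that total by 1.10 (SE 0.28, limma adjusted p = 0.0355, lost in 5 of 11 fits without 1 library at 0.0509 to 0.131). ATMG01260 held 0.153%, 0.118% and 0.154% of mitochondrial TPM in sos2-2 in NaCl against 0.204%, 0.298% and 0.315% in wild type in NaCl, without overlap, and fell relative to the total by 0.89 (SE 0.18, limma adjusted p = 0.0136, lost in 3 such fits at 0.0525 to 0.0616). The 2 genes called lower with salt in sos2-2 on this scale were ATMG00970 (-0.58, limma adjusted p = 0.0181) and ATMG01050 (-0.61, limma adjusted p = 0.0459). The call of ATMG00970 was lost without either sos2-2 library on MS or replicate 3 of sos2-2 in NaCl (0.112, 0.0975 and 0.0559), and that of ATMG01050 in 7 of 11 fits without 1 library (0.058 to 0.193) and in the sum with its copy (0.286).

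With salt in wild type the row that fell was ATMG00720. It had 8.91, 5.78 and 8.71 TPM in wild type in NaCl against 21.5, 16.6 and 16.0 TPM in wild type on MS, without overlap, and fell by 1.12 (SE 0.27, limma adjusted p = 0.0147). The call was lost without replicate 1 on MS (0.0685) or replicate 2 in NaCl (0.0812). In sos2-2 it had 7.03, 12.8 and 8.09 TPM in NaCl against 16.6 and 7.60 TPM on MS, and the groups overlapped. Among low rows, ATMG00890 had 15.6, 17.7 and 15.1 TPM in sos2-2 in NaCl against 7.99, 7.55 and 3.83 TPM in wild type in NaCl, and rose by 1.25 ± 0.33 (limma adjusted p = 0.0151, 0.109 without replicate 3 of wild type). ATMG00540 had 5.15 to 7.11 TPM in sos2-2 in NaCl against 1.81 to 3.38 TPM in wild type in NaCl. It rose there by 0.98 (limma adjusted p = 0.00365) and remained called without each library. Its values equal those of its copy AT2G07713 in every library. The call of their sum (1.10, limma adjusted p = 0.00299) thus repeats that of the row and is no further evidence. Relative to the mitochondrial total ATMG00540 rose by 0.63 (limma adjusted p = 0.0265, lost in 3 fits without 1 library at 0.058 to 0.0959).

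Other abundant rows gave smaller differences. ATMG00160 had 243, 230 and 270 TPM in sos2-2 in NaCl against 199, 187 and 146 TPM in wild type in NaCl, and 241 and 212 TPM in sos2-2 on MS against 234, 182 and 218 TPM in wild type on MS, and was not called. ATMG00520 had 92.7, 93.4 and 97.0 TPM in sos2-2 in NaCl against 80.9, 64.6 and 50.3 TPM in wild type in NaCl, and was not called either. ATMG01120 had 571, 776 and 676 TPM in sos2-2 in NaCl against 509, 420 and 351 TPM in wild type in NaCl, and was called (limma adjusted p = 0.0404, lost in 6 of 11 fits without 1 library at 0.0507 to 0.147).

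Nuclear genes of the same complexes and of mitochondrial RNA metabolism were counted beside the mitochondrial ones. Of 29 nuclear genes of the respiratory complexes, ATP synthase and cytochrome c, 4 rose in sos2-2 against wild type in NaCl, where 18.9% of all genes rose, and none was called on MS. Those named by rule were AT1G79010 of complex I (0.62), SDH2-1 of succinate dehydrogenase (0.65), AT1G80230 of complex IV (0.83) and CYTC-1, a cytochrome c gene (0.60), with limma adjusted p-values of 0.0453, 0.0284, 0.0243 and 0.044. CYTC-2 rose with salt in sos2-2 by 0.83 ± 0.21 (limma adjusted p = 0.0239). No member was called with salt in wild type or in the interaction, and none fell.

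Of 18 nuclear genes of mitochondrial RNA polymerases and RNA processing, 12 were tested. On MS 2 rose in sos2-2 against wild type: PMH2 and PMH1, DEAD-box RNA helicases of mitochondria known for their part in intron splicing. PMH2 had 19.6 and 19.1 TPM in sos2-2 on MS against 5.25, 2.94 and 4.16 TPM in wild type on MS, and rose by 2.02 ± 0.37 (limma adjusted p = 0.014). In NaCl it had 30.2, 16.2 and 11.7 TPM in sos2-2 against 4.48, 11.2 and 13.5 TPM in wild type, where replicate 1 of wild type was again the low one. PMH1 rose by 1.59 ± 0.35 on MS (limma adjusted p = 0.0253). The 2 are close paralogs that can exchange reads. In NaCl 4 of the 12 rose, where 18.9% of all genes rose: AT5G14580 by 0.77 (limma adjusted p = 0.0112), PMH1 by 0.91 (0.0491), MORF3, an editing factor, by 0.66 (0.0337) and the RNA polymerase gene MGP3 by 0.50 (0.0494). None of the 12 was called with salt or in the interaction.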

How the data were processed

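mRNA was measured in 11 libraries, grouped by their titles. The table deposited by the authors holds 1 TPM value per transcript and library. kallisto 0.46.2, sleuth 0.30.0 and TAIR10 are named, without their roles, per the submitters' processing notes. No source used here says whether poly(A) RNA was selected. Columns sum to 1000000 over 48359 transcripts. TPM keeps no depth, so depth is unknown and no counting interval is given. The small RNA table was not used here.

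TPM were summed to genes. Genes averaging at least 1 TPM (16564) were fitted on log2(TPM + 1), which understates changes of low genes, with limma 3.58.1 (R 4.3.3), an intensity trend and all 4 groups in 1 fit, with Benjamini-Hochberg adjustment over all genes and calls at 0.05. The design also allowed for counts, and the unit required limma. The fit was repeated after scaling each library to its mitochondrial total. Shares were compared by exact two-sided permutation tests. In a test on simulated data for wild type in NaCl against MS, 98.5% of 200 genes changed by a log2 of 2 were recovered among 16564. The changed genes were drawn from those with a mean log2(TPM + 1) above 2. Smaller changes, lower genes and comparisons with sos2-2 on MS were not covered. Nuclear copies were found with BLAST 2.17.0 in TAIR10.1, and identical rows were taken to match within 0.1% in every library. Roles come from notes of the RefSeq annotation, which tied 53 mitochondrial identifiers to nuclear rows and described 24 products.

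Named genes were the 3 largest called rises and falls of each comparison and scale, the highest row of each role list, and members with a role in the reference. Members and lists were chosen with earlier results of these data known. Alternatives were another pseudocount (0.1 or 5), no filter, median centring, scaling to the nuclear total, summing copies, a replicate block and leaving out each library. The purine trend as a covariate and a total with nuclear copies were chosen after seeing the data.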

Additional observations from a re-analysis of the deposited data

Results flagged for a closer look

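ATMG00970 was marked because its salt response differed between the genotypes in a test of the difference itself. The log2 change with salt in sos2-2 less that in wild type was -1.59 on the TPM scale and -1.67 after scaling to the mitochondrial total (limma adjusted p = 0.00391 and 0.00111), with sos2-2 lower in NaCl than on MS in every library and wild type higher in NaCl than on MS in every library.

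The mitochondrial share of TPM outside the plastid was marked because its salt difference ran in opposite directions in the genotypes. The difference between the salt differences was -1.27 percentage points. With the nuclear copies added to the mitochondrial rows the difference was -2.21 points (exact permutation p = 0.005 for each, adjusted 0.0125). These p-values assume no salt difference in either genotype, rather than an equal salt difference in both. The plastid share entered both measures through their denominator, and its part was not tested.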

How the results depend on the processing

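No called mitochondrial gene changed sign under any setting. The following counts moved by over 1.5 times, and the cause was not tested. They are given without the count over all genes, which also moved in the fits where it is given above. They thus cannot be read as a result about the mitochondrial genes alone. With salt in wild type, 2 genes were called on the TPM scale, 1 after median centring, without the filter or with the purine covariate, 4 with a replicate block, and 1 to 33 without 1 library. With salt in sos2-2, 0 were called, against 9 after median centring, 7 with the nuclear total, 1 without the filter, with a pseudocount of 5, with the purine covariate or with the block, and 0 to 2 without 1 library. For sos2-2 against wild type on MS, 12 were called, against 23 after median centring, 28 with the nuclear total, 2 without the filter, 7 with the purine covariate and 2 to 22 without 1 library. In NaCl 19 were called, against 11 after median centring or with the nuclear total (6 of the 19 in each), 32 with the purine covariate and 8 to 38 without 1 library. The interaction gave 1, and 1 to 14 without 1 library. Relative to the mitochondrial total, salt in wild type gave 2, against 1 without the filter, with a pseudocount of 0.1 or with the purine covariate (1 to 21 without 1 library). Salt in sos2-2 gave 2, against 1 without the filter, with a pseudocount of 5 or with the block (0 to 3). sos2-2 against wild type gave 32 on MS, 15 with the purine covariate (6 to 36), and 9 in NaCl, 16 with that covariate (4 to 12). The interaction gave 1 (1 to 14). The ratio of mitochondrial shares with salt in wild type was 0.876, but 1.11 outside the plastid, and 0.819 to 0.946 without 1 library. The ratio of nuclear copies to mitochondrial TPM with salt in sos2-2 lay between 0.971 and 1.02 without 1 library. Deviations of same-numbered libraries correlated at -0.526 to 0.294, so the numbers were not taken as pairs, and the replicate block moved no count beyond those given. Leaving out mitochondrial ribosomal RNA rows was not run, since no row used here was annotated as such. Depth is unknown and limits low rows by an amount that cannot be stated.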
